A study of Rattus norvegicus with 6 samples.

Results

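Collagen chain genes were taken as every gene name of the form Col, number, a, number in the transcript table of the lung libraries, and the FPKM of all transcript rows carrying that name were summed in each library. FPKM (fragments per kilobase of transcript, scaled to the mapped reads of the library) is a level per length, so single transcript rows can be compared with each other. Sums count rows that cover only part of a gene, or lie in its introns, in full. Levels of different chains therefore also depend on how each gene was divided into rows. The rule gave 41 of 21655 gene names. They were grouped by textbook family as 11 fibrillar, 6 basement membrane, 8 FACIT, 5 microfibrillar and 3 transmembrane chains, and the remaining 8 chains were kept together as others. The pulmonary fibrosis (PF) model group was 3 Sprague-Dawley rats given bleomycin at 7 mg/kg by a single intratracheal instillation. The control group was 3 Sprague-Dawley rats given an equal volume of saline in place of bleomycin. Rats entered the experiment at 7 weeks of age and lung specimens were taken on day 28. Nothing in the labels says that a library pools animals, and each was taken as 1 rat. A single bleomycin dose injures the lung acutely before scarring. The methods do not state which regions of the lung the RNA came from.

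Collagens are trimers of polypeptide chains wound into a triple helix, and each chain is made from its own gene. Fibrillar types I, III and V form the cross-linked fibres that stiffen scar tissue, type IV chains form the sheet under epithelium and endothelium, and type VI chains form beaded filaments between these. FACIT collagens sit on the surface of fibrils, and transmembrane collagens are anchored in the cell membrane. In a fibrotic lung, fibroblasts and myofibroblasts are the known makers of the fibrillar chains.

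In these lungs no collagen chain met the thresholds on p and fold, a p of at most 0.05 together with a difference of at least 1 on the log2 scale between group mean FPKM. These are the limits of the study, with the p taken here as unadjusted. Of 39 chains that could be tested with limma, 0 met it, while 298 of all 19645 genes tested did (1.52%). Those 298 were 130 higher and 168 lower genes. After scaling each library to the same FPKM total, 321 genes met it, 184 higher and 137 lower. Small RNA genes with Rfam names held 34.1% to 46.4% of that total, depending on the library. A p of at most 0.05 without the limit on size was reached by 2 chains, Col3a1 and Col8a2, both with higher levels in PF model samples, against 4.91% of all genes. By limma with Benjamini-Hochberg adjustment over all genes, 0 chains had an adjusted p below 0.05 and the lowest adjusted p was 0.933. Every PF model rat was above every control rat in 4 chains, namely Col3a1, Col6a6, Col8a1 and Col8a2, against 4.82% of all genes. Every PF model rat was below every control rat in 0 chains, against 5.87% of all genes. The median difference of the 39 chains was 0.058 on the log2(FPKM + 1) scale, with 27 chains above 0 and 12 below, beside a median of -0.0072 over all genes tested. The chains above and below 0 numbered 32 and 7 after scaling to the same FPKM total, and 23 and 16 without Control 3. The 95% confidence intervals lay within 1 log2 unit of 0 in all 39 tested chains, and their median half-width was 0.34. That scale compresses the change of low genes, and 8 of these 39 chains had a mean below 1 FPKM. Among the 31 chains with a mean of at least 1 FPKM the median difference was 0.12.

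**Figure D1:**
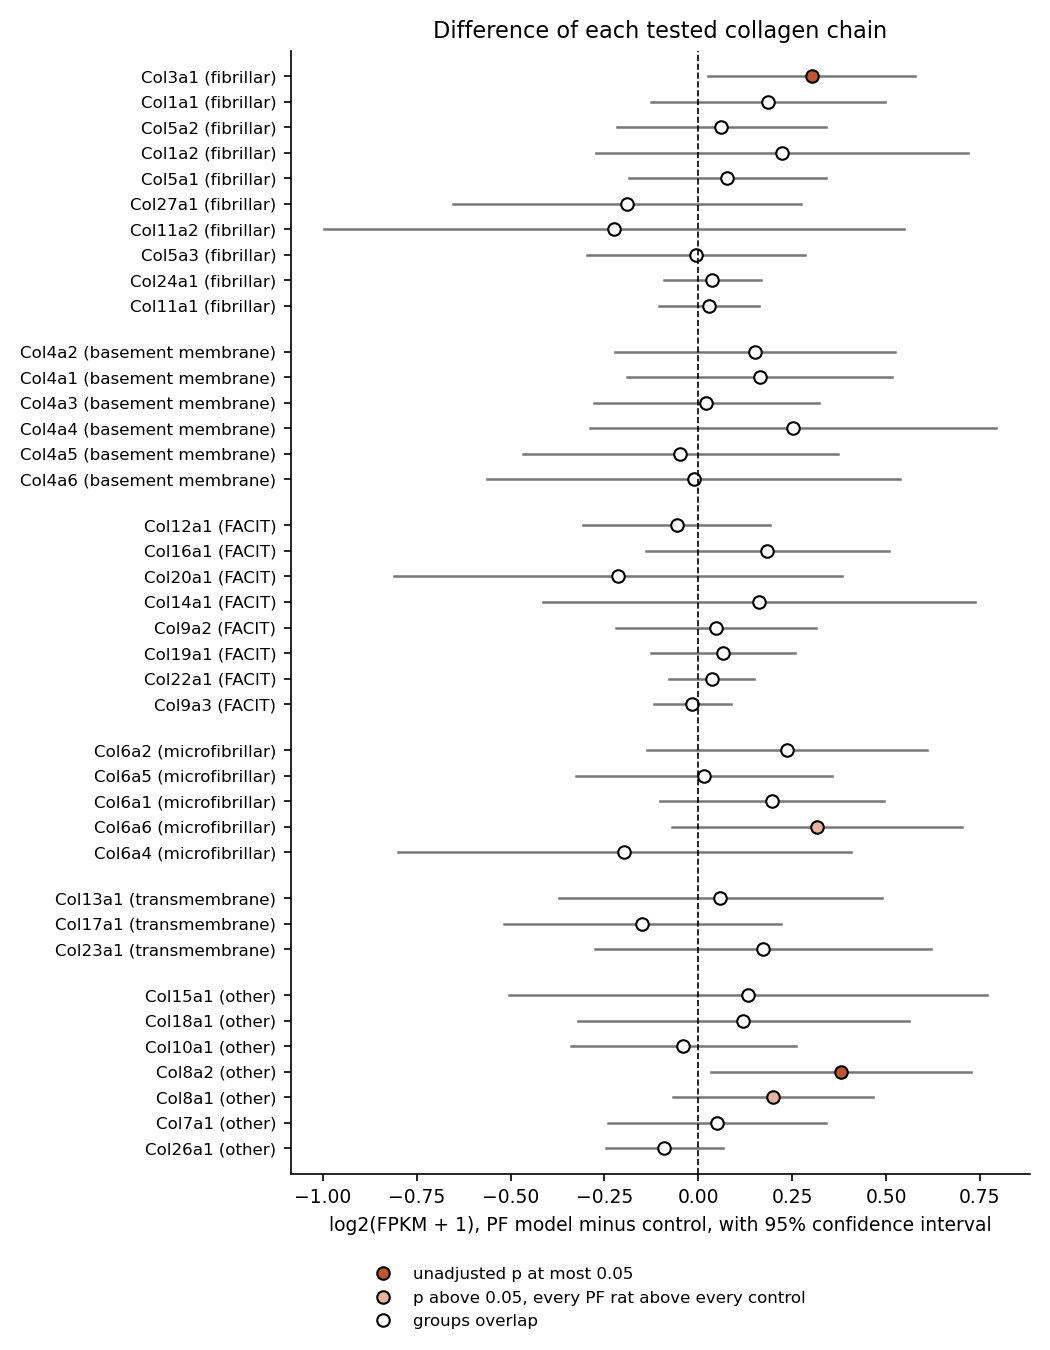
Difference of each of the 39 tested chains on the log2(FPKM + 1) scale, PF model minus control (3 rats each), with its 95% confidence interval from limma. Filled points are Col3a1 and Col8a2 (unadjusted p of at most 0.05), pale points are Col6a6 and Col8a1, and the intervals of all tested chains but Col3a1 and Col8a2 hold 0.

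Ribosomal RNA was removed before each library was made, and the coverage in the table amounts to about 35800000 to 41100000 reads per library. Of these, between 181222 and 239050 reads fell on collagen chains. Lung epithelium marker genes such as Sftpc and Scgb1a1 summed to 8725 to 11518 FPKM over 4 of 5 listed genes, so the label of lung held in every library. Heart muscle marker genes summed to 25.6 FPKM in PF model 3 and to between 5.94 and 10.5 FPKM in the other 5 libraries, with all 5 listed genes in the table. Of these genes, Myh6 was listed at 0 in every control and in PF model 1, at 0.034 FPKM in PF model 2 and at 5.11 FPKM in PF model 3. PF model 3 also gave the highest level of the 6 rats in 12 of the 39 tested chains, and Control 3 gave the lowest in 17. In bulk lung RNA, more collagen-making cells and more collagen RNA per cell cannot be told apart.

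The levels of the chains covered a wide range. In 16 chains the mean over the 6 rats was at least 10 FPKM, in 15 chains it lay from 1 to 10 FPKM, and in 10 it was below 1 FPKM. Col3a1 was the highest chain in every rat and held 20.8% to 25.03% of all collagen FPKM. Together with Col1a1, Col4a1 and Col4a2 it held 46.4% to 51.5%. Below Col3a1, Col4a2 (55.4 to 82.4 FPKM over the 6 rats) was above Col4a1 (53.8 to 79.5), and Col4a1 above Col6a2 (43.3 to 68.7), in every rat. The Col4a2 value adds rows for different parts of the gene. Its highest row alone, MSTRG.14630.1 at 42.0 to 63.8 FPKM, was below Col4a1 in every rat. The place of Col1a1 (60.2 to 84.9 FPKM) among the summed levels of these chains changed between rats. At the other end, Col2a1, the chain of cartilage, had a mean of 0.0063 FPKM and Col28a1 of 0.011 FPKM, and both were above 0 in too few rats to be tested.

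**Figure D2:**
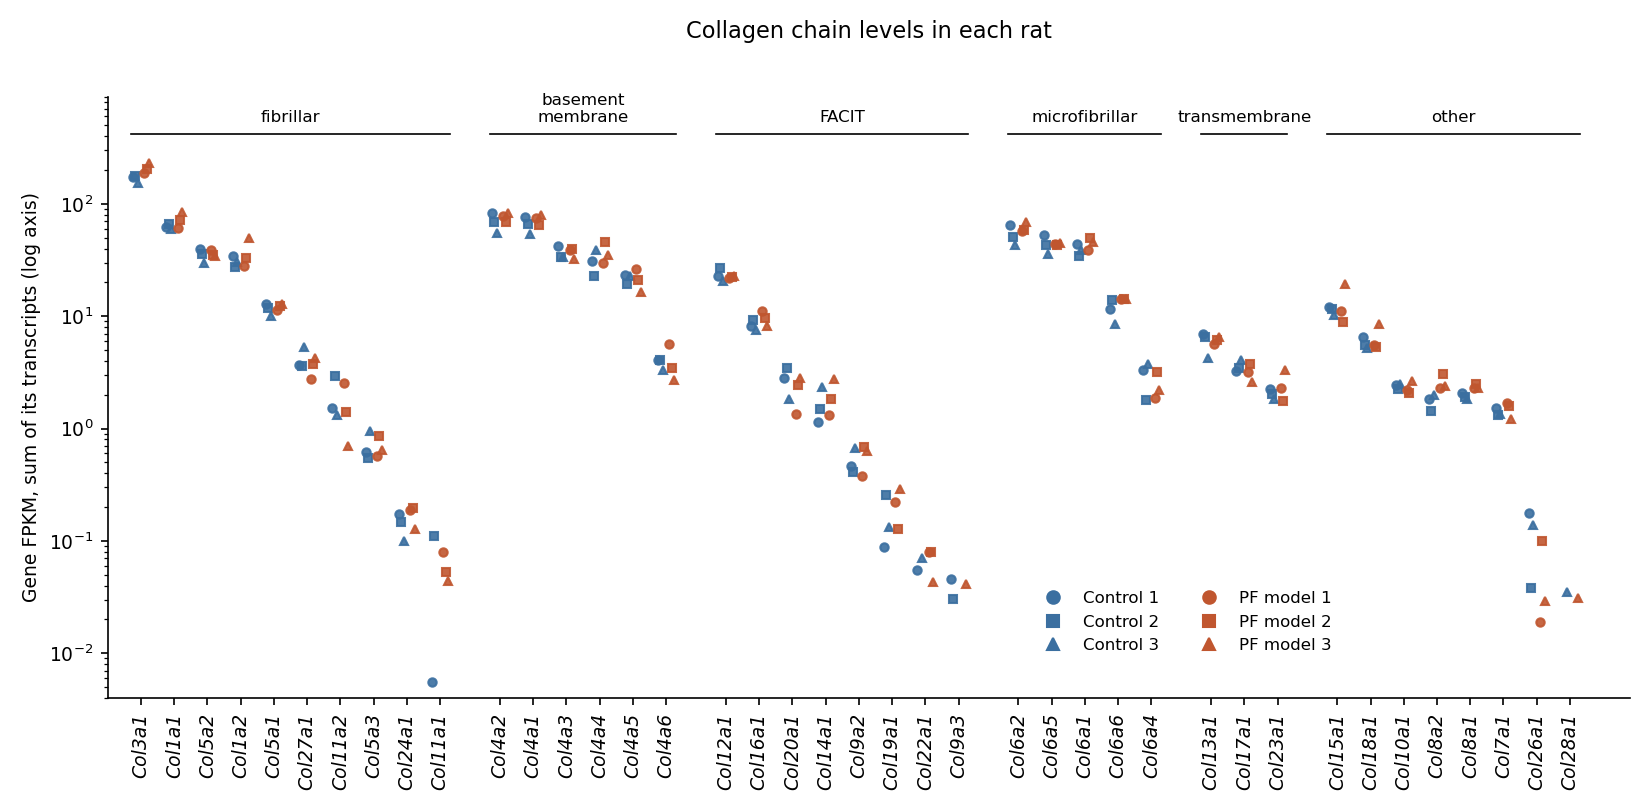
Gene FPKM of the chains in each of the 6 rats on a log axis, ordered by mean within each class, with circles, squares and triangles for rats 1, 2 and 3 of each group. Col3a1 stands at the top with 154 to 233 FPKM, and Col2a1 (mean 0.0063 FPKM) and values below 0.004 FPKM are not drawn.

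Summed over all 41 chains, collagen stood at 838, 762 and 695 FPKM in Controls 1, 2 and 3 and at 814, 846 and 929 FPKM in PF models 1, 2 and 3. Control 1 lay above PF model 1, so the groups overlapped in FPKM, and the ratio of the group means was 1.13. The scaling decided this overlap. As a share of the FPKM of all rows, collagen was 0.151%, 0.128% and 0.134% in controls and 0.152%, 0.160% and 0.182% in PF models. Every PF model rat was then above every control rat. Small RNA genes with Rfam names held 45.5%, 39.3% and 38.2% of that total in controls and 46.4%, 34.1% and 38.4% in PF models. Their part in this separation was not tested. The fibrillar sum was 329, 326 and 292 FPKM in controls and 334, 362 and 420 FPKM in PF models, a ratio of means of 1.18. Its groups did not overlap (329 FPKM in the highest control and 334 FPKM in the lowest PF model). Col3a1 was the largest part of this sum, and the only fibrillar chain whose groups did not overlap by itself. Basement membrane chains summed to 227 ± 28.4 FPKM in controls and 247 ± 4.92 FPKM in PF models (SD, n = 3). Microfibrillar chains summed to 149.9 ± 23.3 and 167 ± 9.74 FPKM. FACIT chains summed to 36.7 ± 4.27 and 36.9 ± 0.707 FPKM, and transmembrane chains to 11.5 ± 1.21 and 11.7 ± 0.626 FPKM. In basement membrane, microfibrillar and FACIT chains the 3 PF model rats lay closer together than the 3 controls, and whether the spread differed was not tested.

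**Figure D3:**
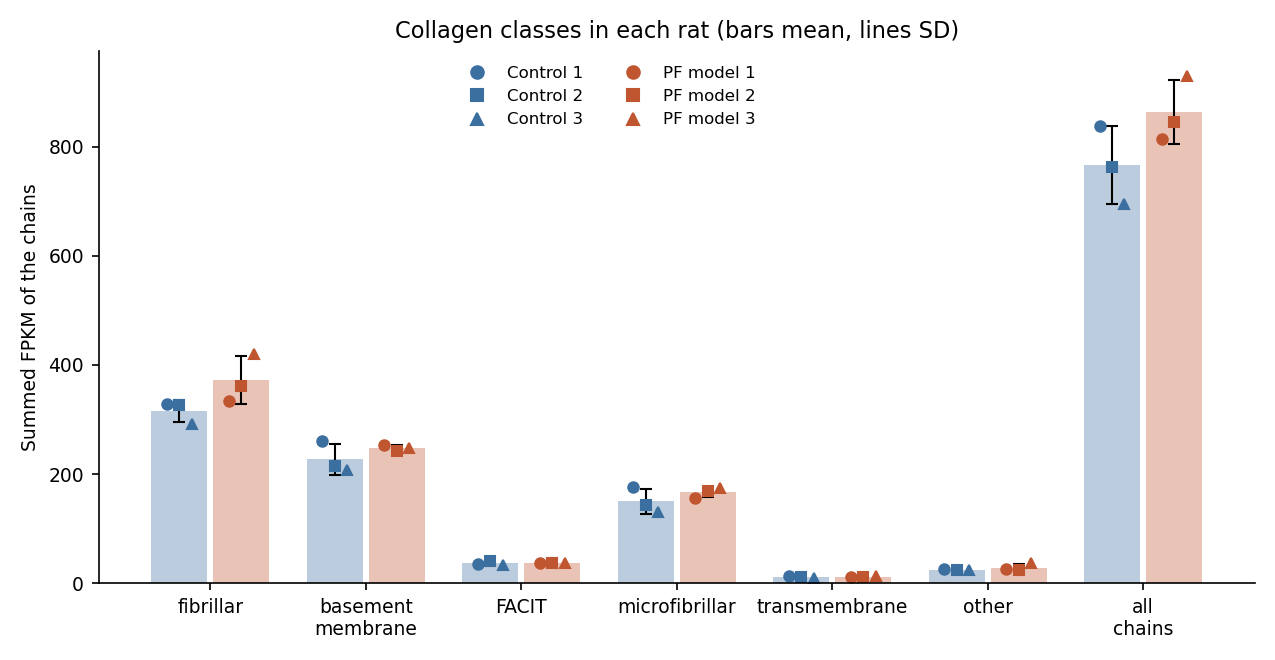
Summed FPKM of the chains of each class in the 6 rats (symbols), with the group mean as a bar and the SD as a line (n = 3). The fibrillar sum, of which Col3a1 is the largest part, lies at 292 to 329 FPKM in controls and 334 to 420 FPKM in PF models. The sum of all chains overlaps between groups in FPKM, though not as a share of the FPKM of all rows.

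Among fibrillar chains, the 3 chains of types I and III each had their highest level in PF model 3. Col3a1, the chain of type III fibrils laid down early in scars, stood at 174, 178 and 154 FPKM in controls and at 189, 204 and 233 FPKM in PF models. Every PF model rat was above every control rat, with means of 168 ± 13.1 and 208 ± 22.3 FPKM (SD, n = 3). The difference was 0.30 on the log2(FPKM + 1) scale with an SE of 0.11 and a 95% confidence interval from 0.03 to 0.58 (limma adjusted p = 0.933). Its unadjusted p was above 0.05 on leaving out Control 1, Control 2, Control 3, PF model 2 or PF model 3, with differences of 0.33, 0.34, 0.24, 0.31 and 0.22, and at most 0.05 without PF model 1, with a difference of 0.37. Col3a1 is a single annotated transcript here, at chr9:52023295-52059217 on the plus strand in the coordinates of the files, so no split between isoforms enters its value.

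Col1a1 (chr10:82745801-82762789, plus strand) gives 2 of the 3 chains of type I collagen. It stood at 62.3, 66.4 and 60.2 FPKM in controls and at 60.7, 71.6 and 84.9 FPKM in PF models. PF model 1 lay within the control range, and the difference of 0.19 had an interval from -0.13 to 0.50. Col1a2 (chr4:31533629-31569583, plus strand), the other type I chain, stood at 34.2, 27.3 and 30.4 FPKM in controls and at 28.2, 32.8 and 49.2 FPKM in PF models. Its difference of 0.22 (interval from -0.27 to 0.72) came down to -0.0027 without PF model 3. That library had the highest heart muscle marker sum. It also had the highest sums over the lists of collagen enzymes (518 FPKM) and of myofibroblast and fibrosis genes (561 FPKM) described below. The next highest sums were 489 and 527 FPKM, both in Control 1. The part of any of these genes in the difference was not tested. The FPKM of Col1a2 was split between rows of 8648 and 5126 bases, in shares that changed between rats. Weighted by transcript length, the difference of Col1a2 was 0.23 with an SE of 0.11, beside an SE of 0.21 for the plain sum. This weighting was not tried without PF model 3. The difference of Col1a1 was 0.065 without PF model 3 and 0.30, with an unadjusted p of at most 0.05, without PF model 1.

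Type V chains, which set the diameter of type I fibrils, had smaller differences. Col5a1 stood at 12.7, 11.8 and 10.0 FPKM in controls and at 11.3, 12.4 and 12.8 FPKM in PF models, a difference of 0.077. Col5a2 stood at 39.5, 35.4 and 29.7 FPKM in controls and at 38.8, 35.2 and 34.7 FPKM in PF models, a difference of 0.061. Of its FPKM, 16.9% came from rows that are antisense to the gene or lie in its introns. Col5a3 remained below 1 FPKM in every rat, at 0.617, 0.550 and 0.951 FPKM in controls and 0.573, 0.862 and 0.647 FPKM in PF models. The other fibrillar chains were lower than Col5a1, with means from 3.90 FPKM for Col27a1 and 1.74 FPKM for Col11a2 down to 0.16 FPKM for Col24a1 and 0.049 FPKM for Col11a1. Rows of other classes than the gene's own exons gave 64.8% of the FPKM of Col27a1 and 27.9% of that of Col11a2. Their groups overlapped in every case.

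Type IV collagen of ordinary basement membranes joins Col4a1 and Col4a2. Col4a1 stood at 77.0, 65.4 and 53.8 FPKM in controls and at 74.2, 64.9 and 79.5 FPKM in PF models, a difference of 0.16 with an interval from -0.19 to 0.52. Col4a2 stood at 82.4, 69.2 and 55.4 FPKM in controls and at 77.6, 68.3 and 82.0 FPKM in PF models, a difference of 0.15. Without Control 3 the differences were 0.033 and 0.0045, and without Control 1 both were 0.29. Control 3 was the lowest and Control 1 or PF model 3 the highest in both chains.

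Both genes lie head to head. In the RefSeq annotation of GRCr8, Col4a2 starts on the minus strand at base 84885520 of chromosome 16 and Col4a1 starts on the plus strand at base 84885597, which leaves 76 bases between them. This shared stretch is shown because the levels of both genes kept a nearly fixed ratio across the rats, and Col1a2 and Col4a3 are shown beside it as chains of a fibrillar type and of another type IV pair. Capitals mark matches on either strand to the CCAAT box (CCAAT), the TATA box (TATAAA), the GC box (GGGCGG) and a C-rich run (CCCTCCC).
Col4a1 and Col4a2, chr16:84885521-84885596, GRCr8, plus strand: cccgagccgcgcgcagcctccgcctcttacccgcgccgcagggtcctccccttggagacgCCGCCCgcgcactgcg
Col4a3, chr9:91323740-91323968, GRCr8, plus strand: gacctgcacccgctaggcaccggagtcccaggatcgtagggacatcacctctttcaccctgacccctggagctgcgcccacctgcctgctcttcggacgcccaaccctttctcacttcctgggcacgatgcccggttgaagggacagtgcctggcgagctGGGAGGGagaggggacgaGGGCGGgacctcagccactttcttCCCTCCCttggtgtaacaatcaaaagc
Col1a2, chr4:33518307-33518412, GRCr8, plus strand: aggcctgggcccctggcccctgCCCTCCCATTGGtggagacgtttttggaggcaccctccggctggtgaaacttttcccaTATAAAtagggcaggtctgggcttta
The stretch between Col4a1 and Col4a2 was 78.9% G and C and held 1 GC box match, read on the minus strand, and 0 matches to the CCAAT box or the TATA box. The 250 bases before each start reach past this stretch, and there Col4a1 and Col4a2 each had 1 CCAAT box match. The Col4a3 stretch ends 21 bases before the start and held 1 GC box match and 2 matches to the C-rich run. The Col1a2 stretch ends 144 bases before the start and held 1 match each to the CCAAT box, the C-rich run and the TATA box, with the C-rich run directly beside the CCAAT box, which reads on the minus strand. No matches overlapped in these stretches.

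RefSeq windows were found for 33 of the 41 chains, and Col1a1, Col2a1, Col3a1, Col6a2, Col9a3, Col12a1, Col14a1 and Col22a1 had none. In the 250 bases before the start, the GC box was found in 19 of the 33 chains (57.6%) and in 32.4% of all 27457 promoter windows. The C-rich run was found in 12 chains (36.4%) and 18.9% of all windows. The CCAAT box was found in 11 chains (33.3%) and 34.3% of all windows, and the TATA box in 4 chains (12.1%) and 13.1% of all windows. Matches to letters are a description of the windows and not of a bound site.

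The ratio of Col4a1 to Col4a2 was 0.934, 0.945 and 0.972 in controls and 0.956, 0.951 and 0.969 in PF models. The highest of these ratios was 1.04 times the lowest, while Col4a1 itself spanned 53.8 to 79.5 FPKM. The other pairs of partner chains varied more between rats. Col1a1 over Col1a2 lay between 1.73 and 2.44, Col5a1 over Col5a2 between 0.291 and 0.370, and Col6a1 over Col6a2 between 0.665 and 0.898. In each pair the control and PF model ratios overlapped. Every pair holds at least 1 gene whose value is a sum over several transcript rows. For Col4a2 the rows cover different parts of the gene, and the highest row held 74.4% to 78.1% of the sum. Whether Col4a1 lies above or below Col4a2 thus depends on the sum.

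**Figure D4:**
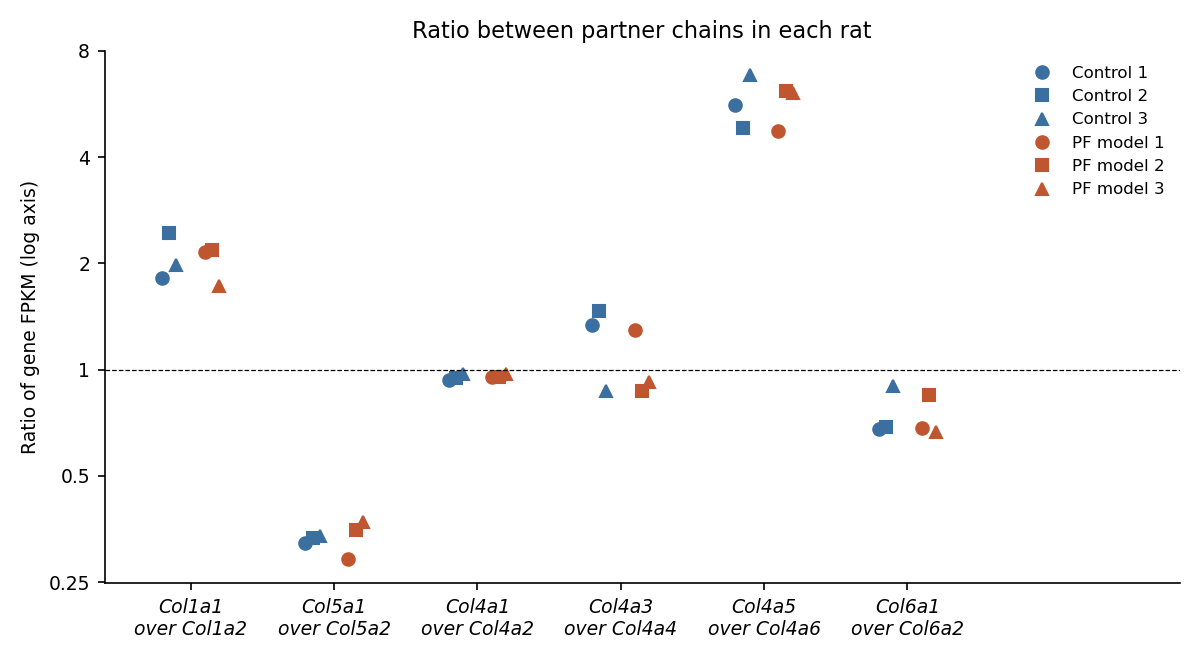
Ratio of gene FPKM between partner chains in each of the 6 rats, on a log axis with a dashed line at 1. Col4a1 over Col4a2 stays between 0.934 and 0.972, while Col4a3 over Col4a4 runs from 0.868 to 1.47.

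Col4a3, Col4a4 and Col4a5 make the tighter network of the alveolar wall, and they were well above the level of Col4a6, the partner of Col4a5 in other membranes. Col4a3 stood at 41.9, 33.4 and 33.5 FPKM in controls and at 38.6, 39.4 and 32.2 FPKM in PF models, a difference of 0.021. Of its FPKM, 33.5% came from rows that are neither annotated nor new splice forms of the gene. Some of these rows lie in introns on the opposite strand, and others overlap its exons on the same strand. Col4a4 stood at 31.2, 22.7 and 38.6 FPKM in controls and at 29.8, 45.3 and 34.9 FPKM in PF models, a difference of 0.25 with an interval from -0.29 to 0.79. Col4a5 stood at 23.1, 19.5 and 22.6 FPKM in controls and at 26.5, 21.1 and 16.3 FPKM in PF models, and 21.9% of its FPKM came from rows within introns. Groups overlapped for all 3 genes. Col4a6 lay at 4.11, 4.04 and 3.31 FPKM in controls and at 5.60, 3.43 and 2.69 FPKM in PF models, and the ratio of Col4a5 to Col4a6 ran from 4.73 to 6.84. Col4a3 and Col4a4 also lie head to head, with 412 bases between their RefSeq starts, and Col4a5 and Col4a6 with 1414 bases.

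The value of Col4a3 depended on a locus outside the rule. LOC100911572, which the table describes as similar to the type IV alpha 3 chain, is an annotated transcript of 1416 bases in 11 exons at chr9:90857308-90874704. It was listed at 12.3, 10.3 and 10.3 FPKM in controls and at 0, 0 and 0.020 FPKM in PF models (limma adjusted p = 0.000881). With this locus added, Col4a3 stood at 54.2, 43.7 and 43.9 FPKM in controls and at 38.6, 39.4 and 32.2 FPKM in PF models. Every PF model rat then lay below every control rat, and the difference changed from 0.021 to -0.35 (limma adjusted p = 0.933). How reads were divided between the 2 loci was not tested. The addition was chosen after the values were seen.

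Type VI chains form microfibrils around cells, from Col6a1 and Col6a2 with a further chain. Col6a1 stood at 43.6, 34.6 and 38.9 FPKM in controls and at 39.1, 50.03 and 45.6 FPKM in PF models, a difference of 0.20 with an interval from -0.10 to 0.49. Col6a2 stood at 64.2, 50.4 and 43.3 FPKM in controls and at 57.2, 59.0 and 68.7 FPKM in PF models, a difference of 0.24 with an interval from -0.14 to 0.61. Without Control 1 the difference of Col6a2 was 0.39 with an unadjusted p of at most 0.05, and without Control 3 it was 0.11. Neither gene separated the groups. No row bore the name Col6a3, their usual partner. The locus AABR07068316.1, which the table describes as that chain, stood at 45.4, 34.9 and 36.2 FPKM in controls and at 44.3, 45.2 and 49.96 FPKM in PF models, with a difference of 0.26 (limma adjusted p = 0.933).

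Col6a4, Col6a5 and Col6a6 are alternative partners that lie side by side on chromosome 8. Col6a6 stood at 11.6, 13.8 and 8.58 FPKM in controls and at 14.1, 14.1 and 14.1 FPKM in PF models, a difference of 0.32 with an interval from -0.07 to 0.70 (limma adjusted p = 0.933). The PF model rats lay above the controls by a small margin over Control 2. No row of Col6a6 is annotated, and its value adds rows for different parts of the gene. Its highest row, MSTRG.35695.6, stood at 6.24, 8.61 and 3.58 FPKM in controls and at 7.65, 6.70 and 8.06 FPKM in PF models. The groups overlapped in that row. The difference of summed Col6a6 was 0.15 without Control 3. It was 0.46 without Control 2 and 0.40 after scaling to the same FPKM total, both with an unadjusted p of at most 0.05. Col6a5 stood at 52.8, 43.3 and 35.5 FPKM in controls and at 44.0, 42.7 and 44.7 FPKM in PF models, a difference of 0.015. Of its FPKM, 29.5% came from rows that are antisense to the gene or overlap it otherwise, including a row of 219 bases on the opposite strand. An assembled Col6a5 transcript also spans the locus of Col6a6, and how reads were divided between the neighbours was not tested. Col6a4 was lower, at 3.31, 1.78 and 3.76 FPKM in controls and 1.85, 3.17 and 2.19 FPKM in PF models.

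FACIT chains gave the class ratio of summed FPKM nearest to 1, at 1.005. Col12a1, which coats fibrils under tension, stood at 22.8, 26.6 and 20.6 FPKM in controls and at 21.7, 22.3 and 22.8 FPKM in PF models, a difference of -0.058. Of its FPKM, 13.2% came from a row within an intron. Col16a1 stood at 8.13, 9.19 and 7.50 FPKM in controls and at 11.05, 9.57 and 8.09 FPKM in PF models, a difference of 0.18. Groups overlapped for both, as they did for the other 6 FACIT chains. These had means from 2.45 FPKM for Col20a1 and 1.81 FPKM for Col14a1 to 0.020 FPKM for Col9a3.

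Of the transmembrane chains, Col13a1, found at cell adhesions, stood at 6.93, 6.58 and 4.23 FPKM in controls and at 5.66, 6.12 and 6.47 FPKM in PF models. Col17a1, of the hemidesmosomes of epithelium, stood at 3.22, 3.48 and 4.10 FPKM in controls and at 3.15, 3.76 and 2.58 FPKM in PF models, and 64.5% of its FPKM came from rows of other classes than the gene's own exons. Col23a1 had means of 2.03 ± 0.206 FPKM in controls and 2.46 ± 0.785 FPKM in PF models (SD, n = 3). LOC103693323, a locus of 22 transcript rows that the table describes as this chain, was higher, with means of 29.4 ± 4.20 and 26.6 ± 3.52 FPKM. With it added, Col23a1 had means of 31.4 and 29.0 FPKM and its difference changed from 0.17 to -0.11. The groups overlapped for all 3 chains, with and without this locus.

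In the remaining class, Col15a1 and Col18a1 are basement membrane proteoglycans with endostatin-type ends. Col15a1 stood at 11.9, 11.7 and 10.2 FPKM in controls and at 11.03, 8.80 and 19.5 FPKM in PF models. Col18a1 stood at 6.50, 5.57 and 5.20 FPKM in controls and at 5.55, 5.32 and 8.47 FPKM in PF models. In both chains PF model 3 stood apart above all other rats, and without it the differences were -0.17 and -0.065 in place of 0.13 and 0.12.

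Col8a1 and Col8a2 are the 2 chains of type VIII collagen, a short-chain collagen of vessel walls. Col8a1 stood at 2.07, 1.89 and 1.82 FPKM in controls and at 2.28, 2.50 and 2.30 FPKM in PF models, a difference of 0.20 with an interval from -0.07 to 0.47 (limma adjusted p = 0.933). Col8a2 stood at 1.84, 1.44 and 1.97 FPKM in controls and at 2.30, 3.03 and 2.40 FPKM in PF models, a difference of 0.38 with an interval from 0.03 to 0.73 (limma adjusted p = 0.933). Both genes had every PF model rat above every control rat. In Col8a2, however, 44.8% of the FPKM came from MSTRG.28990.1, an unstranded row of 419 bases inside an intron (chr5:144318322-144318740, gene at chr5:144308611-144335172). The annotated transcript alone stood at 0.950, 1.21 and 1.32 FPKM in controls and 0.998, 1.29 and 1.39 FPKM in PF models, and without the intronic row the difference was 0.044 with an SE of 0.12. The unadjusted p of Col8a2 was above 0.05 on leaving out Control 1, Control 2, PF model 2 or PF model 3, with differences of 0.41, 0.30, 0.29 and 0.41.

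Col10a1, known from growing cartilage, was represented by 1 row of 18891 bases in 1 exon at 2.06 to 2.65 FPKM, and no spliced row bore its name. Col7a1, of anchoring fibrils, had means of 1.40 ± 0.113 FPKM in controls and 1.49 ± 0.2501 FPKM in PF models (SD, n = 3). Col26a1 had means of 0.12 and 0.049 FPKM, from between 2 and 12.4 reads per library.

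The gene sums hid larger shifts between transcript rows. The examples were picked with their values known. The 41 chains were described by 122 rows, of which 46 were annotated and 76 assembled from the reads. In 14 of the 23 chains with 2 or more rows, the leading row was not the same in all 6 rats. In Col6a1 the annotated transcript ENSRNOT00000001679 stood at 0.518, 1.26 and 21.9 FPKM in controls and at 1.16, 27.3 and 0.392 FPKM in PF models. Only Control 3 and PF model 2 had it as a main form, so the shift did not follow the groups, and the same 2 rats alone showed the row MSTRG.37526.1 of the Col6a3-described locus, at 24.1 and 22.5 FPKM. In Col5a1 the annotated ENSRNOT00000012334 stood at 9.36 FPKM in Control 3 and between 0.692 and 2.57 FPKM elsewhere. In Col4a4 the row MSTRG.37373.6 was listed at 20.9 FPKM in PF model 3 and at 0 in the other 5 rats. In Col1a2 the row MSTRG.25252.2 ran from 2.42 FPKM in Control 2 to 33.0 FPKM in PF model 3.

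**Figure D5:**
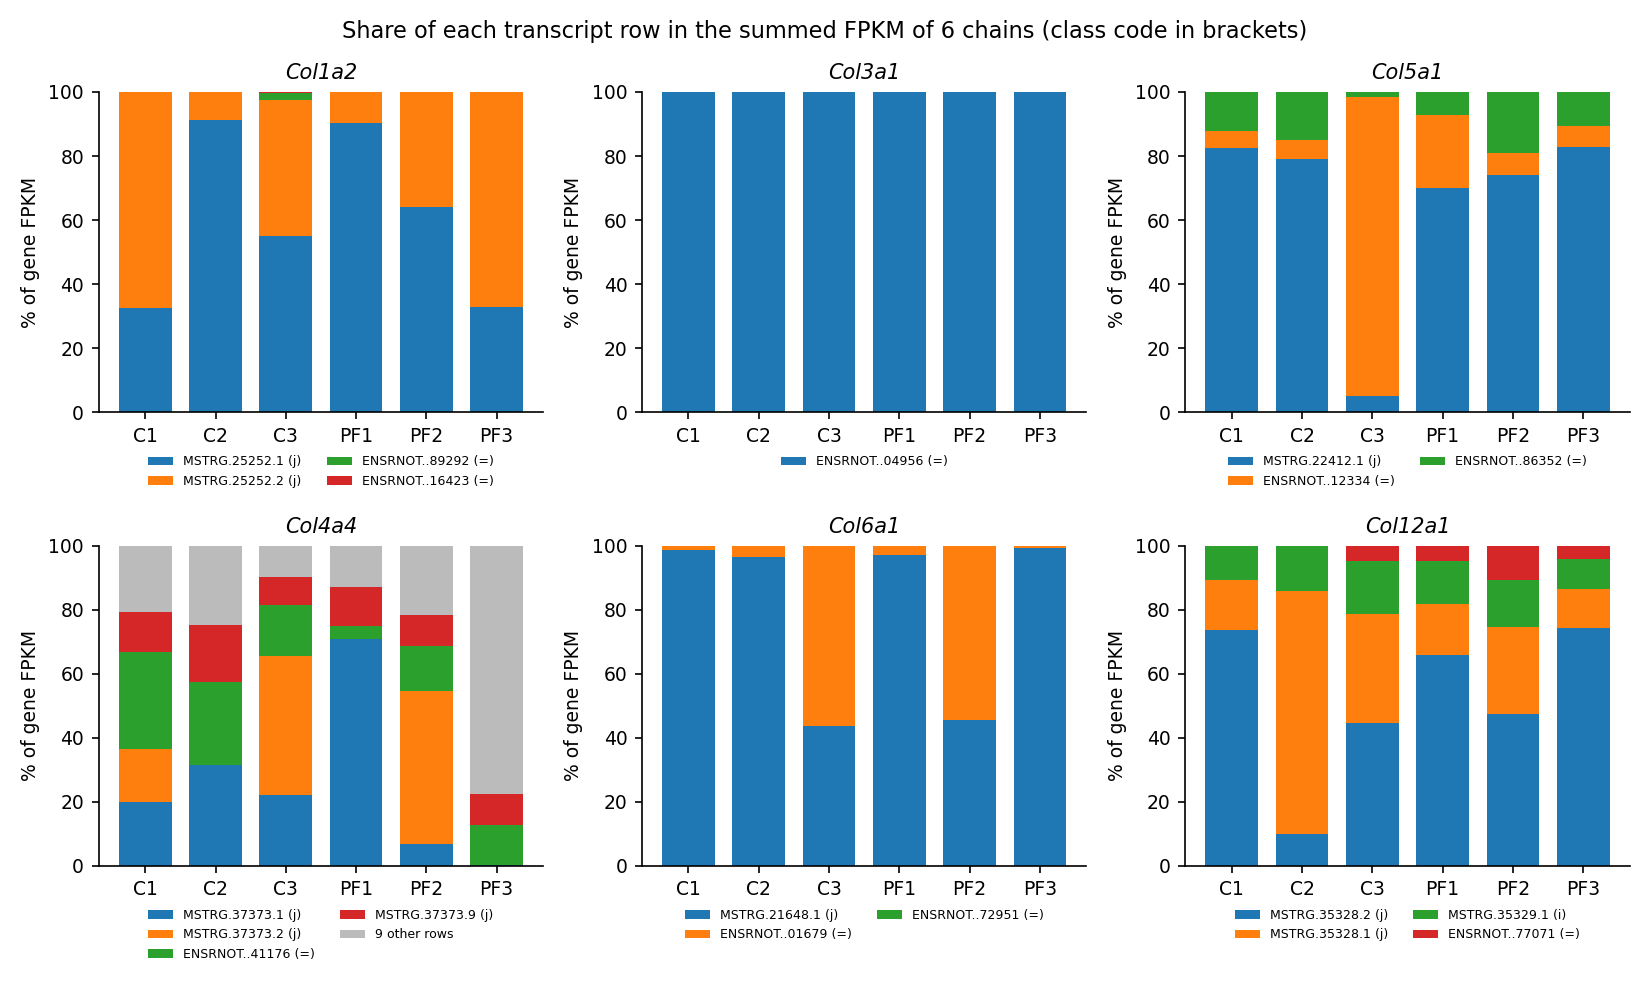
Percent of the summed FPKM of 6 chains held by each transcript row in Controls 1 to 3 (C) and PF models 1 to 3 (PF), with the class of the row in brackets (=, annotated; j, new splicing of the gene; i, within an intron). Col3a1 is a single row, and in Col6a1 the orange row holds over 50% in Control 3 and PF model 2 and under 5% in the other rats.

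Tested row by row with limma, 3 of 107 collagen rows passed the p and fold thresholds, against 2.98% of 64867 rows of all genes, and 0 had an adjusted p below 0.05. The annotated Col12a1 transcript ENSRNOT00000077071 stood at 0, 0 and 1.004 FPKM in controls and at 1.07, 2.38 and 0.936 FPKM in PF models, and its groups overlapped. The intronic row of Col8a2, MSTRG.28990.1, stood at 0.886, 0.224 and 0.655 FPKM in controls and at 1.31, 1.74 and 1.01 FPKM in PF models. The row MSTRG.37374.1, on the opposite strand within an intron of Col4a4, stood at 2.67, 2.34 and 1.25 FPKM in controls and at 1.27, 0.819 and 0.605 FPKM in PF models.

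Back-splice reads of circular RNAs from collagen genes were few. Of 5216 circRNAs, 6 came from collagen chains, each from a different gene, and they held 13 of 14904 back-splice reads (0.0872%). The most frequent was an intron circle of Col4a3 (ciRNA209), with 0, 0 and 1 reads in controls and 2, 1 and 2 in PF models. These counts are too low for a comparison.

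Chains are hydroxylated, folded and trimmed by a set of enzymes and chaperones. Of 31 listed genes 28 were in the table and 27 were tested, and the median difference was 0.087. The p and fold thresholds were met by 0 of the 27, against 1.52% of all genes. A p of at most 0.05 was reached by 2 with higher levels and 0 with lower levels, against 4.91% of all genes in either direction. Serpinh1, the chaperone HSP47 that binds folded procollagen, stood at 88.5, 72.6 and 66.4 FPKM in controls and at 96.2, 92.7 and 93.7 FPKM in PF models, a difference of 0.32 (limma adjusted p = 0.933). Ppib, the cyclophilin of the prolyl 3-hydroxylase complex, stood at 46.4, 40.7 and 39.1 FPKM in controls and at 49.3, 46.7 and 55.5 FPKM in PF models, a difference of 0.26 (limma adjusted p = 0.933). Every PF model rat was above every control rat in 4 of the 27 genes, these 2 with P3h1 and Adamts2, against 4.82% of all genes. Every PF model rat was below every control rat in 1, the cross-linking enzyme Lox, against 5.87%. P4hb, a subunit of prolyl 4-hydroxylase, and Bmp1, which cuts the procollagen C end, were the next highest genes of the list after Serpinh1, with differences of 0.12 and 0.034.

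Of 19 genes of a list on myofibroblasts and fibrosis, 0 met the p and fold thresholds, against 1.52% of all genes. The median difference was 0.12. A p of at most 0.05 was reached by 0 with higher levels and 1 with lower levels, against 4.91% of all genes in either direction. That gene was Eln, elastin, at 89.98, 98.1 and 82.3 FPKM in controls and 72.8, 83.1 and 71.2 FPKM in PF models, a difference of -0.25 (limma adjusted p = 0.933). PF model 2 lay within the control range. Fn1, fibronectin, had means of 74.98 ± 13.7 and 83.0 ± 13.6 FPKM, and Postn, periostin, of 67.7 ± 10.5 and 76.6 ± 18.5 FPKM (SD, n = 3). Fibroblast marker genes summed to 83.8 to 94.7 FPKM in controls and 88.6 to 96.6 FPKM in PF models. Of these 5 genes, 2 (Tcf21 and Pdgfrb) had a difference above 0 and 3 (Pdgfra, Dcn and Lum) below 0, with a median of -0.061. Cartilage, skeletal muscle and Schwann cell markers summed to at most 14.8, 0.538 and 2.36 FPKM.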

How the data were processed

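Lung RNA of 3 control and 3 PF model rats was analysed, grouped by the titles of the samples. The authors trimmed reads with Cutadapt, aligned them (Bowtie2 and Tophat2 in the methods; the submitters' processing notes name HISAT2), and assembled and merged transcripts with StringTie. The deposited FPKM per transcript came from StringTie and Ballgown, the deposited coverage is the mean signal per base, and the deposited circRNA counts are back-splice reads. The genome build is not given in the sources used here, so RefSeq (GRCr8) supplied only promoter sequences. SRPBM values were not used here.

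FPKM were summed per gene name. Genes with FPKM above 0 in at least 3 of 6 samples were compared on log2(FPKM + 1) with limma 3.58.1 (with trend, two-sided) in R 4.3.3, over all genes or all transcript rows, with Benjamini-Hochberg adjustment. The test was checked on simulated data with changes larger than any chain difference reported here, so the check does not cover differences of this size. Reads were estimated as coverage times length over 150 bases, and counting error is not all the error. An exact permutation test of 3 against 3 cannot go below p = 0.1. P-values measure the spread between these rats. Levels in every rat are given for types I, III, IV, V and VI, for chains with p of at most 0.05 and for the 2 highest chains of each class. For the enzyme and myofibroblast lists they are given for genes with p of at most 0.05 and means or differences for the 3 highest. Members and lists were chosen with earlier results of these data known, and partner pairs and alternative loci after values were seen. Other pseudocounts, filters, scalings, tests and ways to sum were tried. Figures used matplotlib 3.10.9, and tables Python 3.11.15 with pandas 2.3.3.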

Additional observations from a re-analysis of the deposited data

How the results depend on the processing

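Of 797 chain values recomputed under the alternatives, 712 kept their direction and their side of the threshold on p, 19 lost and 7 gained a p of at most 0.05, and 59 changed sign, 27 of them on leaving out a rat. In 17 of the 39 chains the sign held in every alternative, and Col3a1 (0.22 to 0.39) and Col8a2 (0.044 to 0.56) were among them. No alternative gave a chain with an adjusted p below 0.05. The median of all chains stayed above 0, at 0.033 to 0.14. It was 0.14 with a pseudocount of 0.1 (0.1351; fibrillar 0.128, FACIT 0.1557) or 0.01 (0.1368; fibrillar 0.1359, FACIT 0.1649) and 0.1203 over chains with a mean of at least 1 FPKM, where 1 collagen row was called. The count of chains with p of at most 0.05, 2 as reported, was 0 in a linear model with the upper quartile as covariate (transmembrane median -0.0911, 1 row called) and 0 with the replicate number as a block (1 row called). It was 1 with transcripts weighted by length (Col8a1), with the highest single transcript (Col4a4; transmembrane median -0.1068) and with rows of class = or j alone (Col3a1). It was 3 with scaling to TPM (Col6a6 added), with limma without trend (Col8a1 added) and with loci added (Col4a3 added). Annotated transcripts alone gave 1 called chain, Col12a1, and a fibrillar median of -0.0064. Adding the loci described as collagens gave a transmembrane median of -0.1105. Over all genes, calls numbered 84 with a mean of at least 1 FPKM, 149 in the covariate model and 519 with annotated transcripts alone, beside 298. A p of at most 0.05 was reached by 798 genes in the covariate model and 881 with the block, beside 965 as reported. It was reached by 886 genes with weighting by length, 879 with the highest single transcript and 875 with class = or j alone. The last 2 alternatives on class codes and added loci were chosen after seeing the data. Except where fewer genes or rows enter by construction, the cause was not tested.

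The titles do not say whether replicate numbers pair the samples. Same-numbered rats had correlations of their deviations of 0.065, 0.028 and -0.078, and differently numbered rats of -0.128 to 0.096. With 3 rats per group such values cannot show or exclude a pairing. The block is given here alone.

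Other chains changed sign as follows, with no p of at most 0.05 except for 2 values. Scaling to TPM gave 0.019 for Col10a1, 0.024 for Col12a1, 0.033 for Col4a5, 0.054 for Col4a6 and 0.023 for Col5a3, and upper quartile scaling 0.0081 for Col4a6 and 0.0065 for Col5a3. The covariate model gave 0.018 for Col10a1, -0.0911 for Col13a1, 0.084 for Col4a5, 0.101 for Col4a6, -0.0062 for Col5a1 and -0.031 for Col6a5. Weighting by length gave 0.0061 for Col11a2, 0.070 for Col12a1 and 0.021 for Col17a1. Annotated transcripts alone gave 0.92 for Col12a1 (p of at most 0.05), -0.086 for Col13a1, 0.061 for Col17a1, 0.026 for Col20a1, -0.026 for Col4a2, -0.57 for Col4a4, -0.33 for Col5a1 and -0.12 for Col5a2. The highest single transcript gave -0.1068 for Col13a1, 0.038 for Col4a5, -0.076 for Col5a1 and -0.12 for Col5a2. Rows of class = or j gave 0.061 for Col17a1 and 0.0020 for Col4a5. Added loci gave -0.1105 for Col23a1 and -0.35 for Col4a3 (p of at most 0.05).

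Leaving out each rat in turn gave 0 to 3 chains with p of at most 0.05 and 0 to 3 called rows. Over all genes, 984, 838 and 735 had a p of at most 0.05 without Control 1, 2 and 3. Without PF model 2 and PF model 3 the numbers were 1103 and 840. Between 19322 and 19369 genes were tested in these fits. The share of all rows called was not taken for them. The medians then ran from 0.033 to 0.14 for all chains, 0.0071 to 0.10 for fibrillar, -0.0068 to 0.20 for basement membrane, 0.011 to 0.053 for FACIT, 0.11 to 0.29 for microfibrillar, -0.072 to 0.17 for transmembrane and -0.065 to 0.20 for the other chains. Chains whose sign changed on leaving out a rat ran from -0.11 to 0.013 for Col10a1, from -0.49 to 0.035 for Col11a2, from -0.14 to 0.038 for Col12a1, from -0.13 to 0.17 for Col13a1, from -0.025 to 0.34 for Col14a1, from -0.17 to 0.36 for Col15a1, from -0.065 to 0.23 for Col18a1, from -0.0027 to 0.39 for Col1a2 and from -0.033 to 0.13 for Col4a3. The others ran from -0.21 to 0.12 for Col4a5, from -0.25 to 0.17 for Col4a6, from -0.011 to 0.15 for Col5a1, from -0.045 to 0.15 for Col5a2, from -0.076 to 0.094 for Col5a3, from -0.13 to 0.16 for Col6a5, from -0.0067 to 0.13 for Col7a1 and from -0.0087 to 0.14 for Col9a2. Chains that kept their sign but moved by over 1.5 times include Col1a1 (0.065 to 0.30), Col4a1 (0.033 to 0.29), Col4a2 (0.0045 to 0.29), Col4a4 (0.056 to 0.42), Col6a1 (0.12 to 0.29), Col6a2 (0.11 to 0.39), Col6a6 (0.15 to 0.46), Col16a1 (0.085 to 0.29), Col17a1 (-0.25 to -0.045) and Col23a1 (0.00087 to 0.32).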
